A study of Mus musculus with 12 samples.

Results

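Frame-shifting cassette exons over 60 nucleotides (nt) are exons that a transcript either carries or skips, and whose length is not a multiple of 3, so that inclusion and skipping leave the downstream sequence in different reading frames. They were taken from the deposited table of splicing events as the exon skipping events with a single genomic position and a variable part longer than 60 nt and not divisible by 3. This rule gave 2413 of 19323 events, in 1578 genes that were the only gene of their event, and no measured read number entered it. A further 44 members were assigned to more than 1 gene and 42 to none. The lengths ran from 61 to 8551 nt with a median of 124 nt. The same exon can appear in several events with other neighbours, and 2174 distinct exon positions were counted among members of known strand.

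The libraries came from G1E-ER4, a mouse line of proerythroblasts without GATA1 of its own, in which a GATA1-estrogen receptor fusion lets estradiol switch on erythroid maturation. Cas9 editing with a donor template, hygromycin selection and removal of the cassette by flippase gave a Sf3b1 K700E/+ line and a Sf3b1 +/+ line, each represented here by 1 clone. All 6 libraries, 3 per genotype, were poly(A) RNA after 24 h of estradiol, and the 0 h libraries were not analysed here. With 1 clone per genotype, the genotype and the clone cannot be told apart, and p-values measure only the spread between these libraries.

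Sf3b1 encodes a subunit of the U2 small nuclear ribonucleoprotein, which recognises the branch point upstream of an acceptor site, and K700E is the most frequent of its substitutions in myelodysplastic syndromes with ring sideroblasts. A cassette exon is included when its acceptor and its donor are both joined to the neighbouring exons, and it is skipped when the donor upstream is joined directly to the acceptor downstream. Where a change of frame brings a stop codon well before the last exon junction, the transcript is a candidate for nonsense-mediated decay, so that the frame decides whether inclusion or skipping is the form that codes for the full protein.

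Sequences from GENCODE M21 transcripts (GRCm38) show this for exons named further on. They are printed 5′ to 3′, and capitals mark the first stop codon in the frame of the annotated start codon. For exons whose inclusion keeps the coding frame, the joined sequence holds the last 18 bases before the exon and continues after the exon as far as the stop. For exons whose skipping keeps the frame, it holds the 18 bases before the exon and the exon itself as far as the stop.
Ddias exon of 118 nt, chr7:92861400-92861517, minus strand: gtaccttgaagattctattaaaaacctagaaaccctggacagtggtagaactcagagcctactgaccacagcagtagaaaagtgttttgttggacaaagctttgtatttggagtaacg
Ddias, exon skipped: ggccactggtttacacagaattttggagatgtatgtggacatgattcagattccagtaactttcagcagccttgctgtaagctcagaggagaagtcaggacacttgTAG
Mdm4 exon of 68 nt, chr1:133004654-133004721, minus strand: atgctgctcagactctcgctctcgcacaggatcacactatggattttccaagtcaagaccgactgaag
Mdm4, exon skipped: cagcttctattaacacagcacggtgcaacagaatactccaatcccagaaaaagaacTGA
Soat2, exon of 137 nt skipped, chr15:102153148-102153284, plus strand: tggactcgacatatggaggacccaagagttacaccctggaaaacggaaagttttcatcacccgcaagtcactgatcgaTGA
Brat1, exon of 176 nt skipped, chr5:140717144-140717319, plus strand: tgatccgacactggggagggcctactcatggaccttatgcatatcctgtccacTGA
Slc38a9, exon of 85 nt included, chr13:112684062-112684146, plus strand: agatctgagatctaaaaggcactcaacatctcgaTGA
Rev1, exon of 125 nt included, chr1:38074899-38075023, minus strand: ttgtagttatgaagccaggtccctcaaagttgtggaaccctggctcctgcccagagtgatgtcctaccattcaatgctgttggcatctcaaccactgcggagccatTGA
Skipping of the Mdm4 exon put a stop 38 nt after the new junction and 448 nt before the last exon junction. Skipping of the Soat2 exon put it 60 nt after the junction and 1192 nt before the last one. In Ddias and Brat1 the new stop, 88 nt and 35 nt after the junction, lay in the last exon. Inclusion of the Slc38a9 exon put a stop 16 nt into the exon and 1473 nt before the last junction, and inclusion of the Rev1 exon put it 88 nt into the exon and 2131 nt before the last junction.

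Library totals in the gene count table ran from 44045337 to 50077827 in Sf3b1 K700E/+ and from 38785471 to 40702174 in Sf3b1 +/+. Sf3b1 itself was counted at 746 to 769 CPM (counts scaled to the same library total) in Sf3b1 K700E/+ and at 729 to 757 CPM in Sf3b1 +/+ (log2 fold change 0.01, SE 0.05, adjusted p = 0.858 in edgeR's quasi-likelihood test), a level that does not check the substitution. Summed over the 11 erythroid markers found in the count table, the level was 8711 to 14573 CPM in Sf3b1 K700E/+ and 10567 to 15017 CPM in Sf3b1 +/+, and all 11 were above 1 CPM. The 15 granulocyte and macrophage markers summed to 1.34 to 1.94 CPM in Sf3b1 K700E/+ and 11.5 to 33.1 CPM in Sf3b1 +/+, with 6 and 5 of them at 0. The 12 mast cell, basophil and eosinophil markers summed to 29.2 to 54.9 CPM against 72.4 to 90.9 CPM, with 4 at 0 in each genotype. The 10 megakaryocyte markers summed to 28.2 to 54.3 CPM against 57.2 to 107 CPM, with 3 at 0 in each. The 8 lymphoid markers stayed at or under 0.195 CPM in sum, and 7 and 6 of them were at 0. The part of these markers in the splicing results was not tested, and in bulk RNA fewer cells of a type and less RNA per cell cannot be told apart.

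Inclusion was measured as percent spliced in (PSI), written here as a fraction: the reads of the form with the exon, divided by its length, over the same quantity summed for both forms. A difference between the genotypes was called a differentially spliced event (DSE) when the adjusted p of edgeR's quasi-likelihood test was under 0.05 and the mean PSI differed by more than 0.10. At least 10 reads over both forms were required in every library, which 2292 members passed and 121 did not. A tested member had a median of 134 reads per library, and 24 at the fifth percentile. Median PSI over the tested members was 0.750, 0.774 and 0.782 in the Sf3b1 K700E/+ replicates 1, 2 and 3, and 0.785, 0.804 and 0.806 in the Sf3b1 +/+ replicates 1, 2 and 3. Replicate 1 was lowest in both genotypes, and every +/+ median was above every K700E/+ median. A lower median was not particular to these exons. The median of mean PSI, as the share of the longer form, was 0.585 in Sf3b1 K700E/+ and 0.611 in Sf3b1 +/+ over all tested events. It was 0.729 and 0.752 for cassette exons over 60 nt with a length divisible by 3 (frame-keeping), and 0.770 and 0.804 for the frame-shifting exons.

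Of the 2292 tested exons, 120 were DSEs (5.24%), in 97 genes, against 6.32% of all 18038 tested events. PSI was higher in Sf3b1 K700E/+ for 42 of them (1.83%, against 2.19% of all events) and lower for 78 (3.4%, against 4.13%). The libraries of the genotypes did not overlap for 555 tested exons (24.2%, against 25.9% of all events) and for 117 of the 120 DSEs. The share called was thus near that of all events and somewhat under it, in both directions. Among the 1677 tested frame-keeping cassette exons over 60 nt 80 were called (4.77%), 35 higher and 45 lower, and among 718 cassette exons of up to 60 nt 37 were called (5.15%), 20 higher and 17 lower; these shares were not tested against each other. At the length limit, 3 of the 52 tested exons of 61 or 62 nt were called, and 3 of the 59 tested cassette exons of 58 or 59 nt.

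Near either end of the PSI scale a difference over 0.10 can go only 1 way. Of 751 exons with a mean PSI of at least 0.9 in Sf3b1 +/+, 22 were called, all with lower PSI in Sf3b1 K700E/+. Of 177 exons under 0.1, 11 were called, all with higher PSI. Between these limits 87 of 1364 exons were called, 31 higher and 56 lower. The plot of mean PSI in both genotypes shows this: called exons lie on both sides of the diagonal between these limits and on 1 side beyond them.

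**Figure D1:**
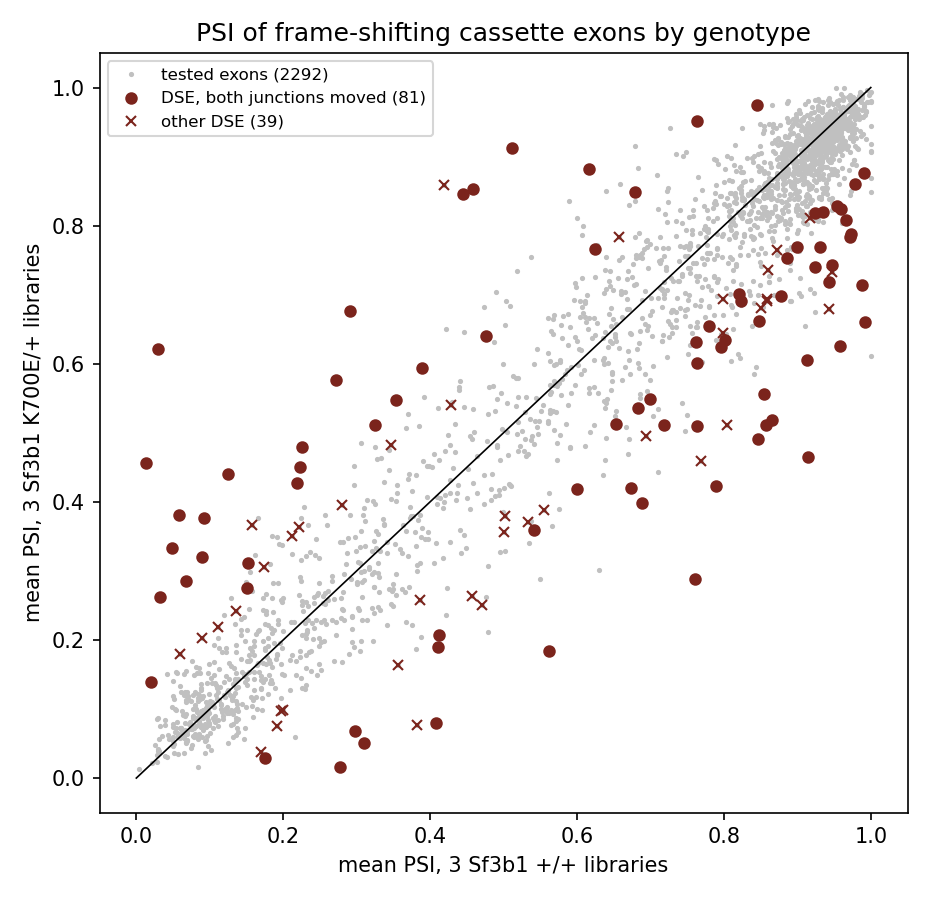
Mean PSI of the 2292 tested frame-shifting cassette exons in 3 Sf3b1 +/+ libraries (x axis) and 3 Sf3b1 K700E/+ libraries (y axis). Dark circles are the 81 DSEs whose PSI moved by more than 0.10 in the called direction when computed from each exon junction alone, and crosses are the other 39; most exons lie near the diagonal.

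Reads of the included form come from both junctions of the exon and from inside it. A path can carry many reads at 1 junction and few at the other, and the cause of such imbalance was not tested. The event table lists a first and a second junction, without stating which is the acceptor. PSI was therefore also computed from each junction alone against the skipping junction. For 81 of the 120 DSEs, 29 of the 42 higher and 52 of the 78 lower, both junctions gave a difference over 0.10 in the called direction, and 52 of the 120 were called at each junction by itself. For 8 DSEs a junction gave the opposite sign. Over all tested exons, the lesser junction held at least 1 read for every 3 of the greater in 1735, of which 77 were called (4.44%), and fewer in 557, of which 43 were called (7.72%).

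Of the 41 called exons named here, DESeq2's test kept 23 and limma on logit PSI kept 14. The 13 that passed with both were the exons of Ctns, Slc38a9, Ddias, Slc35a3, Fyb, Poli, Kel, Bnip1, 1600020E01Rik, Tef and Sipa1l1 and the 1460 and 128 nt events of Acp5. The 18 that DESeq2's test did not keep include every call described as lost without a library, and the exon of ENSMUSG00000121037.

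Among the falls of PSI with the most reads was that of the 118 nt exon of Ddias, which encodes a suppressor of apoptosis after DNA damage (GRCm39 chr7:92510608-92510725). Its PSI was 0.647, 0.650 and 0.685 in Sf3b1 K700E/+ and 0.993, 1.00 and 0.984 in Sf3b1 +/+, a difference of -0.332 (adjusted p = 1.54e-11). Skipping was almost confined to the mutant line: the skipping junction held 81, 65 and 57 reads there and 1, 0 and 2 reads in Sf3b1 +/+. The first exon junction held 121, 117 and 118 reads in Sf3b1 K700E/+ and 119, 114 and 114 in Sf3b1 +/+, and the second junction held 129, 94 and 107 against 110, 81 and 115. These read numbers were not scaled to library totals, which were higher in Sf3b1 K700E/+. The skipped form is the one that ends at the TAG printed above, in the last exon of the transcript. Ddias as a gene was higher in Sf3b1 K700E/+ (log2 fold change 0.47, SE 0.09, adjusted p = 0.00289).

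The largest fall was that of the 154 nt exon of Ctns, which encodes the lysosomal cystine transporter (GRCm39 chr11:73087925-73088078). PSI was 0.294, 0.333 and 0.236 in Sf3b1 K700E/+ and 0.762, 0.820 and 0.699 in Sf3b1 +/+ (difference -0.472, adjusted p = 2.77e-06). Its skipping junction held 32, 24 and 21 reads against 11, 7 and 14, and the genotypes overlapped at no junction. The gene was lower in Sf3b1 K700E/+ (log2 fold change -0.59, SE 0.09, adjusted p = 0.000951).

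The 89 nt exon of Mtx3, a metaxin of the outer mitochondrial membrane, went from 0.810, 1.00 and 0.934 in Sf3b1 +/+ to 0.450, 0.427 and 0.520 in Sf3b1 K700E/+ (difference -0.449, adjusted p = 0.00199). Its second junction held only 0, 0 and 2 reads in Sf3b1 K700E/+ and 5, 8 and 7 in Sf3b1 +/+. The 85 nt exon of Slc38a9, which encodes a lysosomal amino acid sensor upstream of mTORC1, fell from 0.845, 0.771 and 0.751 to 0.387, 0.426 and 0.457 (difference -0.366, adjusted p = 0.00509). Its first junction held few reads, 4, 6 and 1 against 3, 6 and 5, and its second 13, 12 and 11 against 24, 23 and 14. This is the exon printed above whose inclusion brings a stop, in the frame of a GENCODE M21 coding transcript that skips it. The event table, however, marks the exon as inside coding sequence. By PSI the form with the exon was the major one in Sf3b1 +/+. Its first junction held 14 reads there in sum and its second 61, beside 12 at the skipping junction. Slc38a9 was lower as a gene (log2 fold change -0.58, SE 0.09, adjusted p = 0.000965).

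The 163 nt exon of Slc35a3, the Golgi transporter of UDP-N-acetylglucosamine, has an acceptor that is not annotated. Its PSI was 0.0619, 0.118 and 0.0606 in Sf3b1 K700E/+ and 0.291, 0.517 and 0.417 in Sf3b1 +/+ (difference -0.328, adjusted p = 1.13e-07). The 104 nt exon of AI480526 fell from 1.00, 0.812 and 0.728 to 0.496, 0.467 and 0.510 (difference -0.355, adjusted p = 0.00522), and 2 further called events of that gene used overlapping exons.

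The other falls among the 10 largest rested on few reads and were lost when libraries were left out. The 110 nt exon of Dnah8, an axonemal dynein heavy chain, had a difference of -0.333 (adjusted p = 0.025) with 1, 3 and 4 skipping reads in Sf3b1 K700E/+ and 0, 2 and 1 in Sf3b1 +/+, and the call was lost without K700E/+ replicate 2 or 3 or any +/+ replicate. The 85 nt exon of Cpt1b, a carnitine palmitoyltransferase of muscle, had a difference of -0.308 (adjusted p = 0.0489) with 8, 1 and 3 skipping reads against 1, 1 and 0, and the call was lost without K700E/+ replicate 1 or 3 or any +/+ replicate. As a gene Cpt1b was counted at only 0.120, 0.0224 and 0.0235 CPM in Sf3b1 K700E/+ and 0.297, 0.270 and 0.122 CPM in Sf3b1 +/+. That was too low for the gene test, and why the event held reads beside so low a count was not tested. The 269 nt exon of Bclaf3 had a difference of -0.310 (adjusted p = 0.021), of which the first junction alone gave -0.00741, and the call was lost without K700E/+ replicate 2 or +/+ replicate 1 or 3. The 77 nt exon of ENSMUSG00000121216, with neither site annotated, had a difference of -0.377 (adjusted p = 0.0369), lost with junction reads only and without K700E/+ replicate 2 or 3 or +/+ replicate 2 or 3.

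The largest rise was that of a 238 nt exon of Sipa1l1, a GTPase-activating protein for Rap (GRCm39 chr12:82287397-82287634), with a donor that is not annotated. PSI was 0.623, 0.652 and 0.588 in Sf3b1 K700E/+ and 0.0290, 0.0269 and 0.0343 in Sf3b1 +/+ (difference 0.591, adjusted p = 3.37e-14). The exon had hardly any reads in Sf3b1 +/+. The first junction held 13, 8 and 20 reads against 3, 0 and 0, the second 40, 53 and 44 against 0, 2 and 1, and the skipping junction 26, 26 and 35 against 60, 65 and 65. In Sf3b1 K700E/+ the first junction thus held fewer reads than the skipping junction and the second more, and the first alone gave a difference of 0.295. A second event with the same exon and another partner gave a difference of 0.443 (adjusted p = 2.65e-15). The gene was lower in Sf3b1 K700E/+ (log2 fold change -0.67, SE 0.15, adjusted p = 0.00574).

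A 107 nt exon of Bnip1, which encodes a SNARE protein of the endoplasmic reticulum, has neither site in the annotation the authors used (GRCm39 chr17:27002200-27002306). PSI was 0.292, 0.223 and 0.272 in Sf3b1 K700E/+ and 0.0335, 0.0291 and 0.0337 in Sf3b1 +/+ (difference 0.230, adjusted p = 1.29e-09). Its first junction held 41, 27 and 27 reads in Sf3b1 K700E/+ and 0, 0 and 0 in Sf3b1 +/+, and its second junction 42, 34 and 26 against 7, 3 and 6. The level of Bnip1 differed by -0.14 on the log2 scale (SE 0.07, adjusted p = 0.115).

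The 169 nt exon of the gene 1600020E01Rik rose from 0.0423, 0.0562 and 0.0769 to 0.354, 0.350 and 0.439 (difference 0.323, adjusted p = 1.65e-07), with 17, 17 and 22 reads at the first junction against 1, 2 and 1. A 77 nt exon of Tef, a basic leucine zipper transcription factor of the PAR family, rose from 0.613, 0.339 and 0.383 to 0.882, 0.863 and 0.792 (difference 0.401, adjusted p = 7.7e-05), and 2 more called events of Tef hold the same or an overlapping exon. The 103 nt exon of Parp6, a mono-ADP-ribosyltransferase, rose from 0.0688, 0.107 and 0.0998 to 0.260, 0.539 and 0.330 (difference 0.284, adjusted p = 0.000495). In all 3 the genotypes did not overlap, which the rule for naming them required.

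The 61 nt exon of Socs6, a suppressor of cytokine signalling, had a difference of 0.440 (adjusted p = 0.000772), with 39, 31 and 36 reads at its second junction against 15, 14 and 12 but only 2, 0 and 1 against 1, 2 and 7 at its first. Its first junction alone gave -0.0419. The remaining rises were lost when libraries were left out. The 85 nt exon of Zscan21, a zinc finger factor, had a difference of 0.254 (adjusted p = 0.00855), lost without K700E/+ replicate 1. The 179 nt exon of Nudt13, a nudix hydrolase, had a difference of 0.304 (adjusted p = 0.0279), lost with junction reads only and without K700E/+ replicate 2 or 3 or +/+ replicate 1 or 3. The 113 nt exon of Rcsd1, which binds the actin capping protein, had a difference of 0.385 (adjusted p = 0.032), lost with junction reads only and without K700E/+ replicate 1 or 2 or +/+ replicate 2 or 3. The 127 nt exon of 2610044O15Rik8 had a difference of 0.267 (adjusted p = 0.025), lost without any K700E/+ replicate or +/+ replicate 3.

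**Figure D2:**
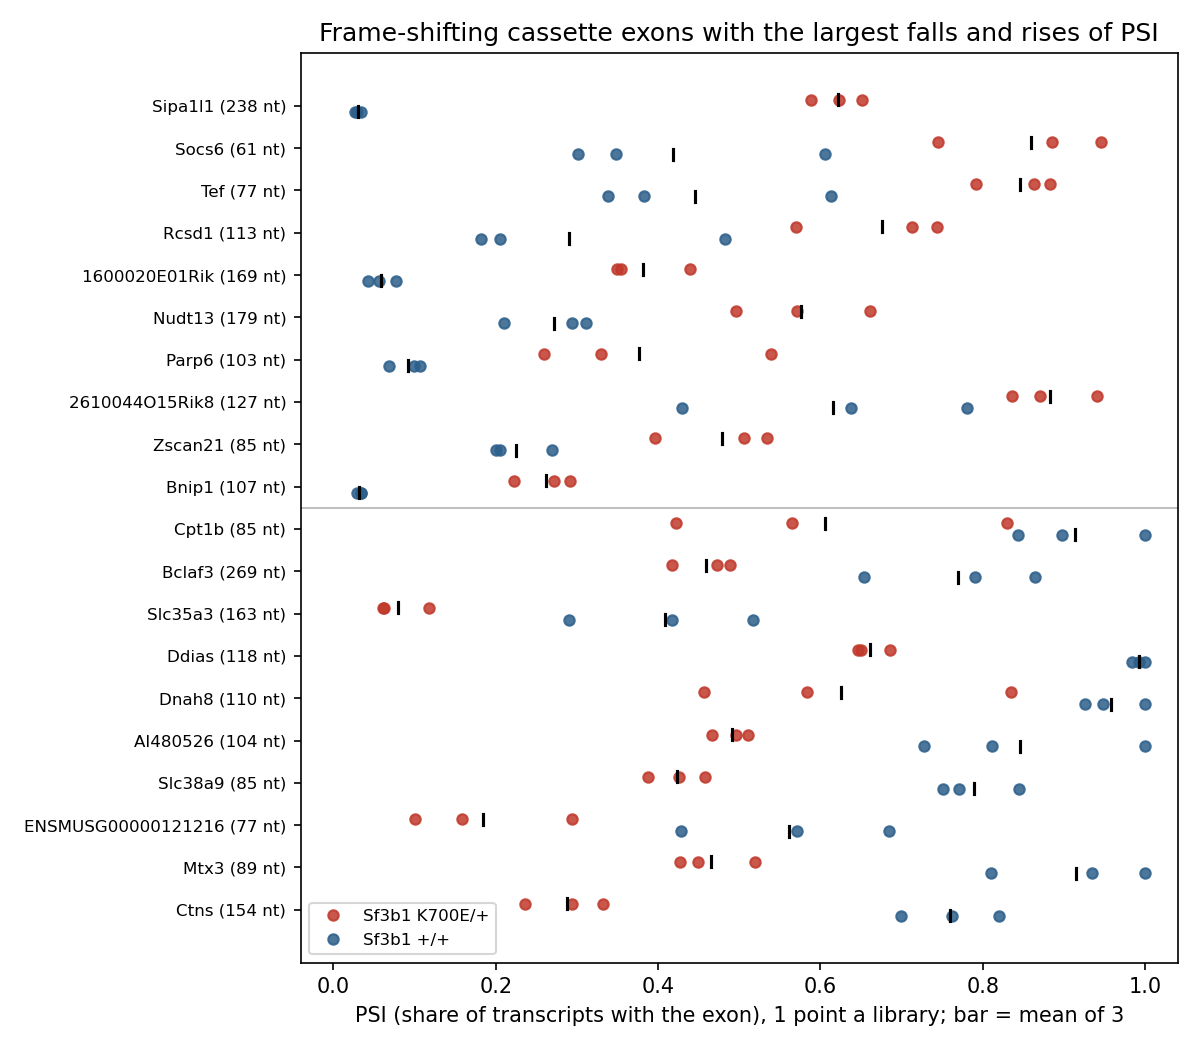
PSI per library of the 10 exons with the largest falls (lower rows) and the 10 with the largest rises (upper rows), at most 1 event per gene, in Sf3b1 K700E/+ (red) and Sf3b1 +/+ (blue); points are libraries and bars are means of 3. The rows with tight groups, such as Ddias, Sipa1l1 and Bnip1, differ from rows with wide ones, such as Cpt1b, Rcsd1 and 2610044O15Rik8.

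**Figure D3:**
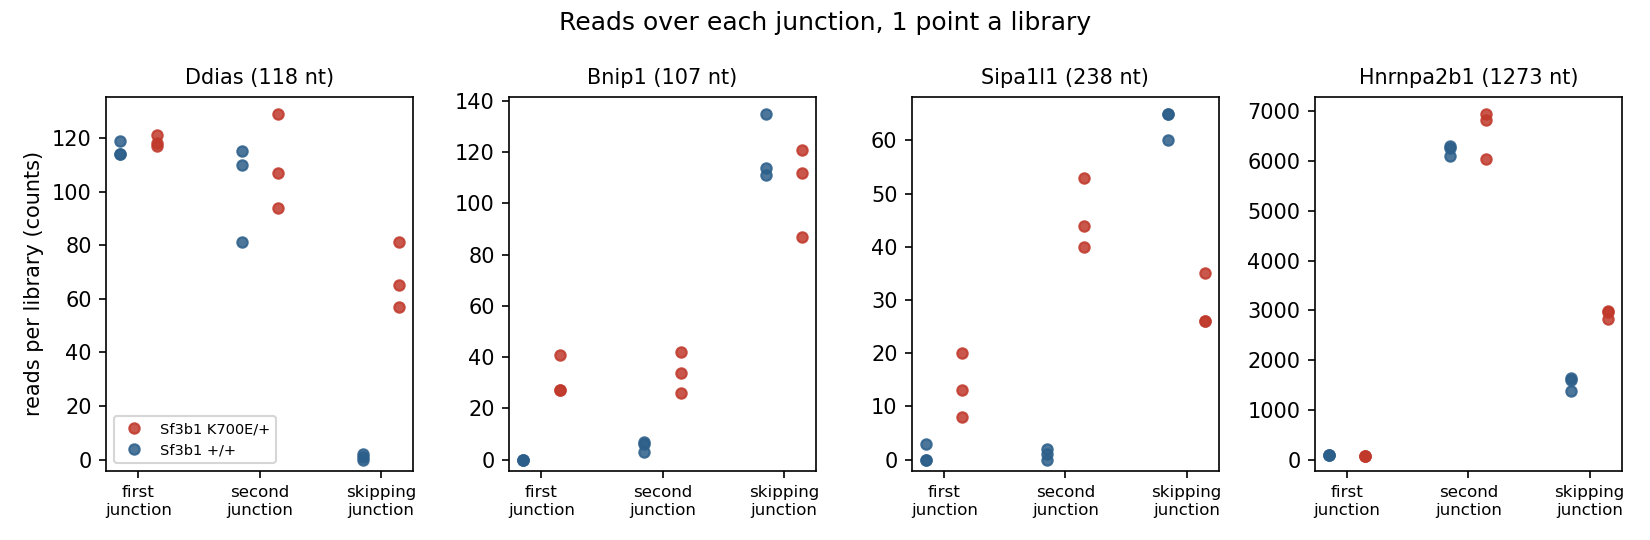
Read counts per library over the first junction, the second junction and the skipping junction of 4 exons, in Sf3b1 K700E/+ (red) and Sf3b1 +/+ (blue). The y axis has 1 scale per exon, and counts are not scaled to library totals. Ddias differed at the skipping junction, Bnip1 at both exon junctions, Sipa1l1 at all 3 junctions, and the first junction of Hnrnpa2b1 held at most 100 reads beside at least 6046 at its second.

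Exons of splicing factor genes were read against the 5.24% called among all tested frame-shifting exons. Of 23 tested exons in genes of hnRNP and related RNA-binding proteins 1 was called, and of 33 in genes of other splicing factors 2. The list of SR proteins and TRA2 held 2 tested exons, in Srrm1 and Srrm2, and none was called. The Srsf and Tra2 genes of that list held no tested exon. The Srrm1 exon had an adjusted p under 0.05 but a difference of 0.067. At an unadjusted p under 0.05, edgeR gave 2 of the 2 exons in Srrm1 and Srrm2, and neither DESeq2 nor limma called any. The call in Hnrnpa2b1 was a 1273 nt variable part with a difference of -0.144 (adjusted p = 5.73e-05), and its first junction alone gave -0.0353. PSI of the 335 nt exon of Prpf39, a protein of the U1 particle, differed by -0.122 (adjusted p = 0.0237), lost without K700E/+ replicate 1 or +/+ replicate 2 or 3. Its second junction alone gave -0.0836. PSI of a 62 nt exon of Rbm25, a regulator of splice site choice, differed by 0.107 (adjusted p = 0.00334), lost without K700E/+ replicate 2. Neither site of the Rbm25 exon is annotated, and its second junction alone gave 0.0507. The 4 exons of these genes with most reads among those not called had close values in both genotypes. Only for the Syncrip exon did the genotypes not overlap (adjusted p = 0.136 in edgeR), as for 24.2% of all tested frame-shifting exons. PSI of the 83 nt exon of Raly was 0.770 ± 0.00774 (SD, n = 3) against 0.764 ± 0.0211, that of the 1226 nt exon of Hnrnpc 0.0992 ± 0.00700 against 0.0903 ± 0.00906, that of the 160 nt exon of Syncrip 0.947 ± 0.00949 against 0.923 ± 0.0115, and that of the 139 nt exon of Hnrnph1 0.880 ± 0.00912 against 0.848 ± 0.0372. At gene level, 11 of 43 tested genes of the hnRNP list were higher and 6 lower in Sf3b1 K700E/+ at an adjusted p under 0.05. The counts were 16 and 8 of 73 for the other splicing factors, and 0 and 2 of 14 for the list of SR proteins and TRA2. Of all 12547 tested genes 21.3% were higher and 23.1% lower.

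None of the 6 tested exons in genes of nonsense-mediated decay was called, beside 6.32% of all events. Their differences ran from -0.0427 to 0.0491, none of them with an adjusted p under 0.05 in edgeR. At an unadjusted p under 0.05 there was 1, and DESeq2 and limma called 0. These genes include Upf2, Rnps1 and Dhx34, of which Upf2 acts as a bridge between the decay factors. At gene level 5 of 20 tested members of that list were higher and 3 lower (all genes: 21.3% and 23.1%).

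Of 49 tested exons in genes of DNA repair and replication, 1 was called higher and 3 lower, beside 6.32% of all events, and 2 of the 4 were overlapping events of Rev1. The 125 nt exon of Rev1, a scaffold of translesion synthesis, had a PSI of 0.378, 0.425 and 0.362 in Sf3b1 K700E/+ and 0.577, 0.573 and 0.514 in Sf3b1 +/+ (difference -0.167, adjusted p = 0.0115), and the call was lost without K700E/+ replicate 3. It is the exon printed above whose inclusion brings a stop, and the genotypes did not overlap. Its first junction held 4, 7 and 2 reads against 16, 5 and 7, beside 46, 57 and 49 against 95, 55 and 51 at the second. A 106 nt form with another donor shared the second junction (difference -0.162, adjusted p = 0.0162) and was lost without K700E/+ replicate 1 or 3 or +/+ replicate 1 or 2. With junction reads only, neither Rev1 event was called (adjusted p = 0.062 and 0.0651 in edgeR). The gene was lower in Sf3b1 K700E/+ (log2 fold change -0.38, SE 0.08, adjusted p = 0.00568). For the 130 nt exon of Poli, another translesion polymerase, PSI was 0.0590, 0.0895 and 0.0765 against 0.171, 0.224 and 0.178 (difference -0.116, adjusted p = 0.000317). Without +/+ replicate 2 the difference was -0.0994, and with junction reads only -0.0973, both under the limit of 0.10 in size. The acceptor of the Poli exon is not annotated, and its second junction alone gave -0.0629. The 112 nt exon of Xrcc2, a factor of homologous recombination, had 0.155, 0.207 and 0.177 against 0.0343, 0.0230 and 0.122 (difference 0.120, adjusted p = 0.00852). The call was lost without K700E/+ replicate 2 or +/+ replicate 1 or 2. Neither site of the Xrcc2 exon is annotated, and its first junction alone gave 0.0808. Of 150 tested genes of this list 52 were higher and 28 lower (all genes: 21.3% and 23.1%).

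In genes of the cell cycle and apoptosis 1 of 9 tested exons was called, beside 6.32% of all events. It was the 68 nt exon of Mdm4, which encodes an inhibitor of p53 (GRCm39 chr1:132932392-132932459). PSI was 0.527, 0.611 and 0.644 in Sf3b1 K700E/+ and 0.310, 0.447 and 0.412 in Sf3b1 +/+ (difference 0.205, adjusted p = 0.000652). The skipping junction held 147, 98 and 64 reads against 176, 166 and 143, and each exon junction alone gave a difference of at least 0.197. Skipping is the form with the early TGA printed above, so the full-length reading frame took a larger share in the mutant line, while the gene was lower (log2 fold change -0.40, SE 0.06, adjusted p = 0.000722). For Trp53, whose product Mdm4 binds, 2 tested exons were not called, with differences of -0.070 and -0.060. Of the 65 tested genes of this list, 20 were higher and 15 lower (all genes: 21.3% and 23.1%).

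In genes of heme, iron and iron-sulfur clusters 1 of 5 tested exons was called, beside 6.32% of all events. It was the 116 nt exon of Isca2, an assembly factor of mitochondrial iron-sulfur clusters (GRCm39 chr12:84820567-84820682). PSI was 0.401, 0.346 and 0.331 in Sf3b1 K700E/+ and 0.512, 0.531 and 0.582 in Sf3b1 +/+ (difference -0.182, adjusted p = 0.000129), with 236, 310 and 255 reads at the skipping junction against 151, 171 and 141. GENCODE M21 holds coding transcripts with and without this exon. The level of Isca2 as a gene differed by 0.04 on the log2 scale (SE 0.07, adjusted p = 0.678). Tfrc, Tfr2, Abcb6 and Slc25a38 held the other 4 exons, with differences from -0.0511 to 0.0191. At gene level 15 of 43 members were higher and 7 lower (all genes: 21.3% and 23.1%).

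Among erythroid structure and regulator genes 1 of 6 tested exons was called, beside 6.32% of all events. It was a 68 nt exon of Kel, the Kell blood group endopeptidase (GRCm39 chr6:41664715-41664782), with an acceptor that is not annotated. PSI was 0.293, 0.336 and 0.305 in Sf3b1 K700E/+ and 0.149, 0.159 and 0.150 in Sf3b1 +/+ (difference 0.159, adjusted p = 6.25e-07). Both exon junctions held more reads in every Sf3b1 K700E/+ library, at 125, 180 and 160 against 68, 93 and 90 for the first and 273, 326 and 302 against 154, 192 and 196 for the second. Kel was lower as a gene (log2 fold change -0.35, SE 0.08, adjusted p = 0.00553). The other 5 exons, in Nfe2, Tal1 and Tmod1, differed by -0.00541 to 0.0203. At gene level 16 of 44 members were higher and 10 lower (all genes: 21.3% and 23.1%).

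The exons were divided by whether their own splice sites were annotated. Of 1752 tested exons with both sites annotated 74 were DSEs (4.22%), 20 higher and 54 lower in Sf3b1 K700E/+. Of 135 with only the acceptor not annotated 13 were called (9.63%), 6 higher and 7 lower, and of 109 with only the donor not annotated 10 (9.17%), 3 higher and 7 lower. Of 254 with neither site annotated 21 were called (8.27%), 13 higher and 8 lower. The frame-keeping exons over 60 nt gave 4.91% of 1365, 2.44% of 82, 1.54% of 65 and 6.06% of 132 in the same order. Median PSI in Sf3b1 +/+ was 0.861 with both sites annotated and 0.197 with neither. None of these differences in share was tested. By length, 4.35% of the exons up to 100 nt were called, 5.27% of those over 100 and up to 150 nt, 6.16% of those over 150 and up to 300 nt, and 5.39% of those above.

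To read the frame, members were matched to GENCODE M21 by gene, exon length and the lengths of both flanking introns, without converting coordinates. This matched 1597 of the 2413, of which 1538 were tested and 62 were DSEs. In 763 members the coding form was the one with the exon, in 212 the one without it, and in 98 coding transcripts existed with and without it. In the other 524 no complete annotated coding sequence held the whole exon or its skipping junction. These can include exons that hold a start or a stop codon. Skipping put the first stop more than 50 nt before the last exon junction in 610 of the 763. Inclusion did so in 182 of the 212, and in 176 of them the stop lay in the exon itself.

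Where the exon was needed for the coding form, 19 of 736 tested exons were called (2.58%), 3 higher and 16 lower, so that the coding form took a smaller share in Sf3b1 K700E/+ in 16. With an early stop on skipping, 11 of 589 were called (1.87%), 2 higher and 9 lower. Where skipping gave the coding form, 8 of 208 were called (3.85%), 1 higher and 7 lower, so that the coding form took a larger share in 7. Median PSI in Sf3b1 +/+ was 0.918 in the former class and 0.236 in the latter. Of the exons that GENCODE M21 did not hold in this arrangement 58 of 754 were called (7.69%), 25 higher and 33 lower. By the coding flag of the event table, 58 of 1449 exons inside coding sequence were called (4.0%) and 62 of 811 outside it (7.64%).

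**Figure D4:**
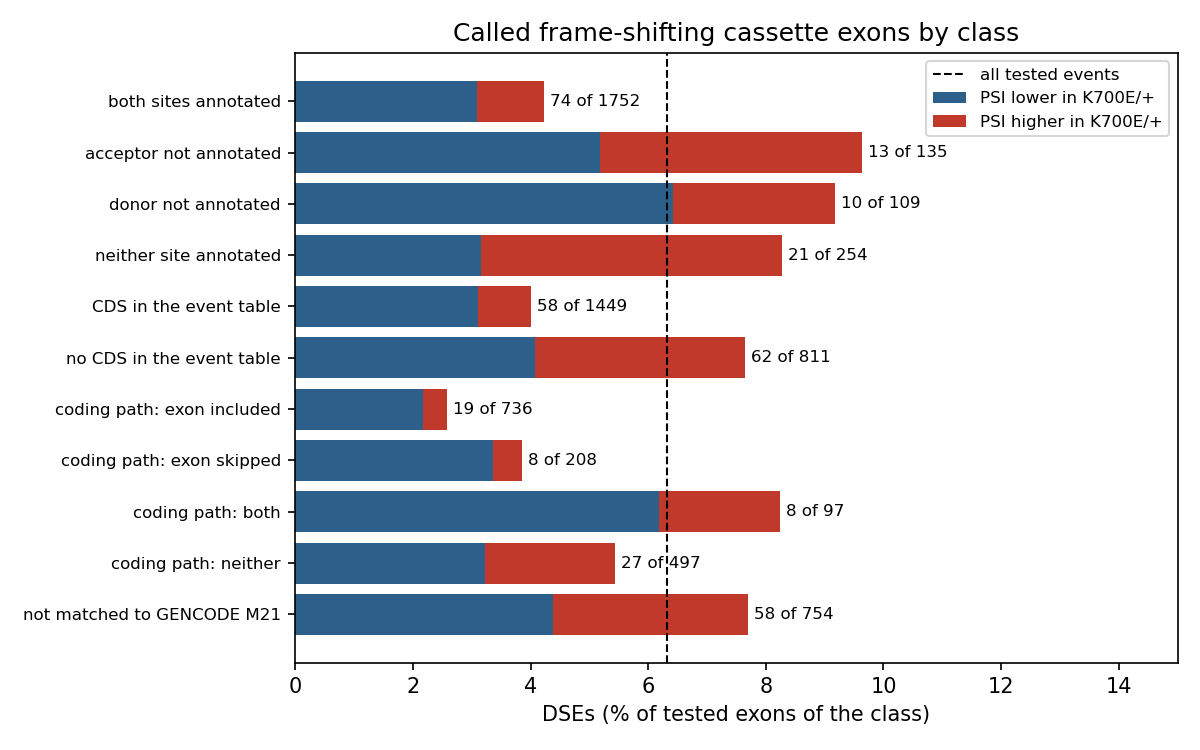
Share of tested frame-shifting cassette exons called as DSEs (x axis, %) by annotation of the exon's splice sites, by the coding flag of the event table and by the coding form in GENCODE M21; blue is lower and red higher PSI in Sf3b1 K700E/+, and the dashed line is the 6.32% of all tested events. The shortest bar is that of the exons whose inclusion keeps the coding frame (19 of 736).

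The genes that hold these exons were compared by their gene counts. A gene was called a differentially expressed gene (DEG) at an adjusted p under 0.05 and a log2 fold change over 1 in size. Of 1499 tested genes with a tested exon 81 (5.4%) passed both limits, 31 with a higher and 50 with a lower level in Sf3b1 K700E/+, against 10.3% of all 12547 tested genes. Median log2 fold change was -0.01 for both sets. Of the 94 tested genes with a called exon 10 were DEGs, 3 higher and 7 lower, and at the adjusted p alone 18 were higher and 35 lower, with a median log2 fold change of -0.12, beside 21.3% higher and 23.1% lower of all tested genes and 355 higher and 382 lower of the 1499. Among the 64 with an exon of lower PSI 12 were higher and 26 lower (median -0.15), and among the 32 with an exon of higher PSI 7 were higher and 10 lower (median 0.02). These medians were not tested.

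The DEGs with a called exon went in both directions. Tut7, a terminal uridylyltransferase, was lower (log2 fold change -1.15, SE 0.06, adjusted p = 1.57e-06), and PSI of its 65 nt exon was 0.445, 0.522 and 0.562 in Sf3b1 K700E/+ and 0.658, 0.836 and 0.797 in Sf3b1 +/+ (difference -0.254, adjusted p = 0.00257). Tnip1, which binds the ubiquitin editing enzyme A20, was lower (log2 fold change -1.32, SE 0.12, adjusted p = 3.72e-05), with 0.436, 0.383 and 0.377 against 0.628, 0.813 and 0.626 for its 172 nt exon (difference -0.290, adjusted p = 0.00814, lost without K700E/+ replicate 2 or +/+ replicate 2). Rngtt, the mRNA capping enzyme, was higher (log2 fold change 1.03, SE 0.08, adjusted p = 1.37e-05), with 0.126, 0.0477 and 0.0312 against 0.237, 0.354 and 0.303 for a 184 nt exon (difference -0.230, adjusted p = 4.48e-05).

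Acp5, the tartrate-resistant acid phosphatase, was higher (log2 fold change 1.16, SE 0.07, adjusted p = 5.08e-06) and held 3 called events. PSI of its 128 nt exon was 0.455, 0.426 and 0.470 against 0.208, 0.217 and 0.242 (difference 0.228, adjusted p = 3.06e-06). Its longer variable parts of 1460 and 1007 nt had differences of -0.264 and -0.215, and their second junction alone gave 0.0350 and 0.0514, on 1, 0 and 6 reads in Sf3b1 +/+. Fyb, an adaptor of immune receptor signalling, was lower (log2 fold change -1.09, SE 0.18, adjusted p = 0.00122). PSI of its 131 nt exon differed by -0.253 (adjusted p = 1.3e-06), with 95, 155 and 138 reads against 191, 462 and 358 at the first junction and 9, 4 and 3 against 11, 22 and 27 at the second.

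Dnah8 was the lowest of these genes (log2 fold change -2.12, SE 0.17, adjusted p = 2.18e-05). Brat1, a partner of ATM, was lower (log2 fold change -1.02, SE 0.10, adjusted p = 7.42e-05), and PSI of its 176 nt exon differed by -0.158 (adjusted p = 0.0138), lost without K700E/+ replicate 1 or +/+ replicate 2 or 3. Soat2, which esterifies cholesterol, was higher (log2 fold change 1.05, SE 0.14, adjusted p = 0.000338), and PSI of its 137 nt exon differed by -0.119 (adjusted p = 0.00965), lost without K700E/+ replicate 2 or +/+ replicate 2. In the 95 nt exon of Mylk3, a myosin light chain kinase of heart, PSI differed by 0.130 (adjusted p = 0.0473) beside a log2 fold change of -1.45 (SE 0.15, adjusted p = 9.4e-05), and the PSI call was lost without K700E/+ replicate 1 or 2 or any +/+ replicate. In the 230 nt exon of ENSMUSG00000121037 it differed by -0.181 (adjusted p = 0.00272) beside a log2 fold change of -1.69 (SE 0.16, adjusted p = 5.32e-05).

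**Figure D5:**
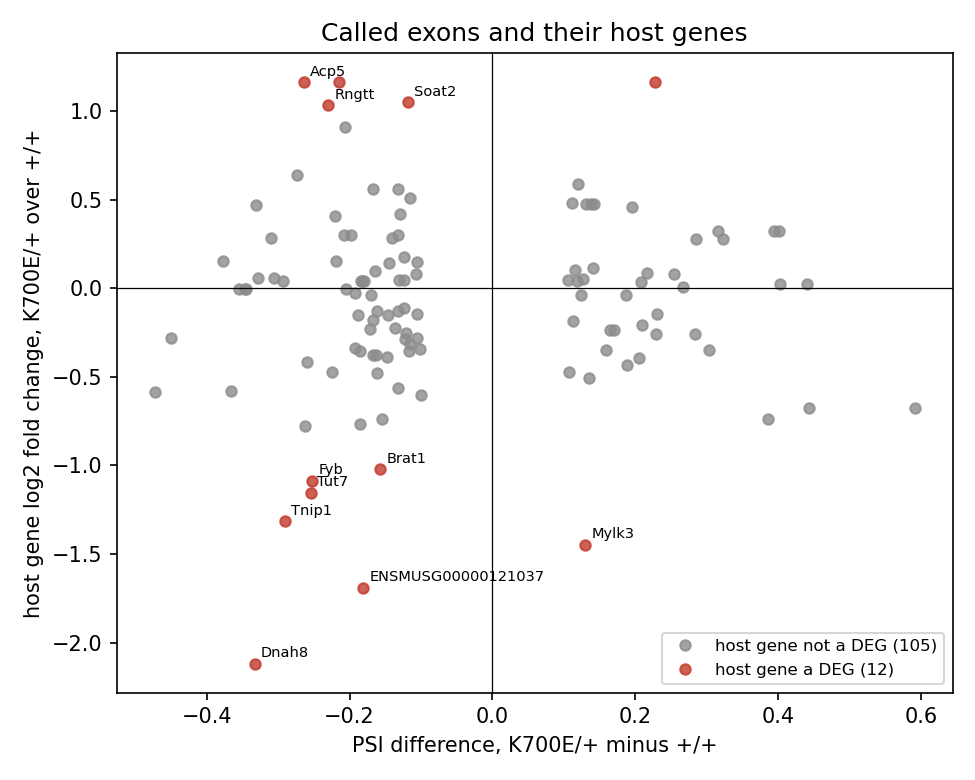
Difference of PSI (x axis, Sf3b1 K700E/+ minus Sf3b1 +/+) of the called exons and log2 fold change of the gene that holds them (y axis); red points are genes called as DEGs, named once each. Both sides of the plot hold genes above and below 0.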

How the data were processed

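RNA-seq of 6 libraries (3 Sf3b1 K700E/+ and 3 Sf3b1 +/+, 24 h of estradiol) was analysed. The authors aligned reads with STAR 2.7.9 (GRCm39 and DESeq2 1.30.1 are also named in the submitters' processing notes) and deposited raw counts per gene. The deposited event table, from KisSplice and KisSplice2refgenome, packs lengths, read numbers and PSI in other columns, per the file headers; 2 read files per library were summed. The authors' comparisons were not used.

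Genes were filtered by filterByExpr, normalized by TMM and tested with edgeR 4.0.16 (R 4.3.3). For events, the counts of the longer and the shorter form entered an edgeR model with a term for each library, and form by genotype was tested over all events, with Benjamini-Hochberg adjustment. Steps were tested on simulated data. Members, lists and rules were chosen with earlier results of these data known. Exons named are the 10 largest rises and falls among separated DSEs (1 event a gene), DSEs in list genes (up to 4 a list), DSEs in DEGs, and the 4 most covered uncalled exons of splicing factor genes. Same-numbered libraries deviated together over 8771 genes (r = 0.63, 0.48 and 0.48), and over 13146 events r was 0.13, 0.07 and 0.06. The main fits left this pairing out. Only the replicate block among the alternatives paired libraries by replicate number. Alternatives changed the coverage minimum, reads counted, test (DESeq2 1.42.0, limma 3.58.1), size factors, block, event filter, threshold and libraries. No 2 replicates were alike within sampling noise (chi-square per degree of freedom 7.42 to 32.6). No per-sample column was left unmatched (0). Counting error is the only error that read numbers cover.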

Additional observations from a re-analysis of the deposited data

How the results depend on the processing

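The count of called exons (120, 42 higher and 78 lower; 1140 over all events) kept within 1.5 times at coverage minimums of 5, 20 and no reads, with junction reads only, the deposited PSI, DESeq2 size factors, the replicate block (144 exons, 1334 over all events) and, added after the data were seen, with the first junction alone (105) or the second (95). DESeq2 called 54 (21 higher, 33 lower; 613 over all events), all 54 among the 120, and limma on logit PSI called 45 (20 higher, 25 lower; 545). Without complex, paralog and SNP events 24 were called (6 higher, 18 lower), and 352 over all events. That filter left fewer exons to test, and the share called also differed by the complex flag of the event table. Of 812 tested exons without the flag 26 were called (3.2%), and of 1480 with it 94 (6.35%), a difference that was not tested. Of the 45 named exons, 10 gave the same result under that filter and 1 a weaker one, and the others carried the complex flag. At a PSI difference over 0.20, by construction fewer, 51 were called (21 higher, 30 lower), and 478 over all events. Leaving out 1 library gave 88 to 109 (29 to 36 higher, 52 to 73 lower; 876 to 993 over all events). Host DEGs were 77 to 82 under the alternatives and 68 to 94 with a library left out, against 81, and 77 with the replicate block. Of 41 called named exons 24 kept an adjusted p under 0.05 without any 1 library. Single junctions reversed 3: Socs6 (-0.0419, first), and the longer parts of Acp5 (0.0350 and 0.0514, second). AI480526 changed sign near 0 as a gene under DESeq2 size factors (0.0045), no low-count filter (0.0093), the DESeq2 test (0.0046) and the replicate block (0.00842), and ran from -0.13 to 0.14 without 1 library. Leaving out 1 library also turned values that were not called: the PSI difference of Raly (-0.0018 to 0.0176) and the log2 fold changes of Slc35a3 (-0.0302 to 0.17), Socs6 (-0.0223 to 0.0703), 2610044O15Rik8 (-0.0769 to 0.0611) and Isca2 (-0.020 to 0.0868). The replicate block ended no call of a named exon and brought the adjusted p of 6 genes with a named exon (Hnrnpa2b1, Mtx3, Parp6, Syncrip, Prpf39 and Bclaf3) under 0.05. Junction reads only raised the adjusted p of 5 called named exons over 0.05, both of Rev1 and those of ENSMUSG00000121216, Nudt13 and Rcsd1. They also took the PSI differences of Poli (-0.0973) and Rbm25 (0.0992) under 0.10 in size, which ended those calls too. The cause of these changes was not tested. Depth limits the least covered exons, which had around 24 reads per library at the fifth percentile.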

Other observations

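The called exons given here lay outside the rule for naming and were chosen after their values were seen. A 77 nt exon of Txnl1, a thioredoxin-like protein of the proteasome, with neither site annotated, had a PSI of 0.0346, 0.0233 and 0.0293 in Sf3b1 K700E/+ and 0.184, 0.164 and 0.176 in Sf3b1 +/+ (adjusted p = 4.41e-13 in edgeR), with 43, 24 and 25 reads against 176, 180 and 185 at its first junction. A 65 nt exon of Ap4b1, a subunit of an adaptor complex of vesicle transport, also with neither site annotated, had 0.0165, 0.0217 and 0.00859 against 0.305, 0.219 and 0.309 (adjusted p = 3.74e-08), and its gene was lower (log2 fold change -0.78, adjusted p = 0.00676). The second junction of the Ap4b1 exon held 0, 1 and 0 reads against 11, 7 and 8.

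The 146 nt exon of Ccdc97, whose inclusion brings a stop into the coding form, had 0.195, 0.199 and 0.177 against 0.412, 0.408 and 0.411 (adjusted p = 4.47e-06). The 157 nt exon of Vopp1 is of the same class and moved the other way, at 0.394, 0.442 and 0.448 against 0.220, 0.208 and 0.230 (adjusted p = 8.86e-05). The 116 nt exon of Ehmt2, a histone H3 lysine methyltransferase, is needed for the coding form and had 0.748, 0.759 and 0.799 against 0.872, 0.911 and 0.917 (adjusted p = 0.000598), beside a gene log2 fold change of -0.57 (adjusted p = 5.01e-05). The 104 nt exon of Ndufs1, a subunit of respiratory complex I, had 0.280, 0.275 and 0.268 against 0.137, 0.162 and 0.152 (adjusted p = 7.38e-05), and a second event with the same exon moved the same way.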
